A study of Mus musculus with 20 samples.

Results

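The comparison described here is between ears of AD model mice given the GSK3 inhibitor SB415286 and ears of AD model control mice, across all genes measured. Its 10 libraries, 5 per group, were chosen by their labels alone and are 10 of the 20 libraries of the series. The other 10 come from a second mouse model that the labels call ACD, in which SB415286 was given at 2 mg/kg. The labels do not spell out the names AD and ACD and do not say how either model was induced.

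All mice were C57BL/6, 6 to 7 weeks old and 16 to 18 g. The treated group received 0.7 mg/kg SB415286 into the abdominal cavity, and ears were taken 4 h later. The sample labels call the controls untreated, whereas the design text calls them vehicle controls. In the protocol text both doses are attached to AD, so the dose of each group follows the sample labels and the design text. No label says whether each library came from a separate animal, and the p-values below therefore measure only the spread between these libraries.

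GSK3 is a serine/threonine kinase that is active in unstimulated cells and is held back by insulin and by Wnt signals. It phosphorylates glycogen synthase, which lowers glycogen synthesis, and beta-catenin, which is then degraded. It also phosphorylates many transcription factors, among them MYC and NRF2, and SB415286 competes with ATP at the kinase. In skin, Wnt signalling is best known for its part in hair follicle growth. Inhibition acts on the GSK3 proteins, and their transcripts stood at similar levels in both groups: the log2 difference of Gsk3a was -0.04 ± 0.08 (SE; 5 libraries per group; edgeR quasi-likelihood test, Benjamini-Hochberg adjusted p = 0.819) and that of Gsk3b 0.15 ± 0.14 (adjusted p = 0.568).

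A library from each group stood apart, and this bears on every result below. SB415286 library 7 lay on the control side of the first principal component, which held 41% of the variance, with a score of -39.9 against 24.9 to 51.4 for the other 4 SB415286 libraries. Control 6 lay on the SB415286 side at 24, against -45 to -8.4 for the other 4 controls. The median correlation of control 6 was 0.96 with the other controls and 0.975 with the SB415286 libraries, so by this measure it was closer to the group it was not labelled as. SB415286 library 7 had 0.948 with its own group and 0.947 with the controls, the lowest median correlation within a group of all 10 libraries. Both libraries were kept in the main comparison under their labels, and results are also given without them. The library totals ran from 18.2 to 20.9 M counts (M, mega), and 17363 to 17726 genes had reads in a library.

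**Figure D1:**
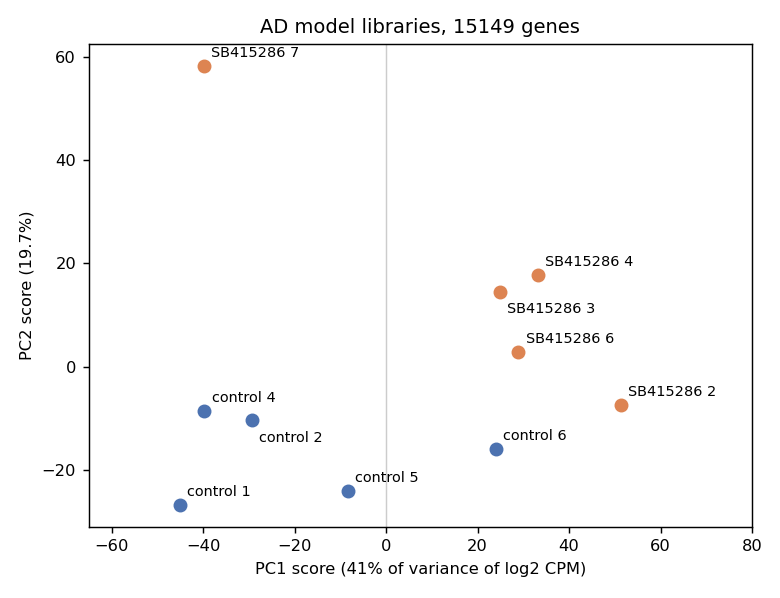
Principal component scores of the 10 AD libraries from log2 CPM of 15149 genes, with the first component (41% of the variance) across and the second (19.7%) upward; each point is a library. SB415286 7 and control 6 lie on the opposite side of the first component from the rest of their groups.

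Of the 15149 genes tested, 187 (1.23%) had a Benjamini-Hochberg adjusted p under 0.05 in the edgeR quasi-likelihood test. Higher levels with SB415286 were called for 89 genes (0.587%) and lower levels for 98 (0.647%). The median change was 0.74 on the log2 scale among the higher genes and -0.87 among the lower ones, beside 0.00 over all genes tested. All adjusted p-values of the called genes lay close to the threshold, from 0.0254 to 0.0493, and 2 of them were under 0.03. The levels of the 2 groups did not overlap for 175 of the 187 genes, and for 704 (4.65%) of all genes tested. The 187 were called on these same levels, so the first of these counts adds nothing to the test. Nor does a lack of overlap given for a called gene below. On the authors' FPKM values, limma on log2(FPKM + 1) called 66 genes higher and 165 lower, a split further towards lower genes than on counts.

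The calls depended on single libraries more than the fold changes did. All 187 genes passed in the fit without SB415286 library 7, where 1122 genes passed, and all 187 in the fit without control 6, where 1423 passed. Of the 187, 15 passed without SB415286 library 6, 1 without SB415286 library 2, and 0 when control 1, 2, 4 or 5 or SB415286 library 3 or 4 was left out. Leaving out any of those 4 controls or 2 treated libraries gave 0 calls among all genes by edgeR, with 2226 to 2661 genes at an unadjusted p under 0.05. Without both SB415286 library 7 and control 6, 3894 of 15163 genes passed (25.7%), 1796 higher (11.8%) and 2098 lower (13.8%), and all 187 were among them. These libraries were picked for lying near the opposite group, so this larger count describes the other 8 libraries and is no separate support. The same holds for every count and median from that fit given below.

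**Figure D2:**
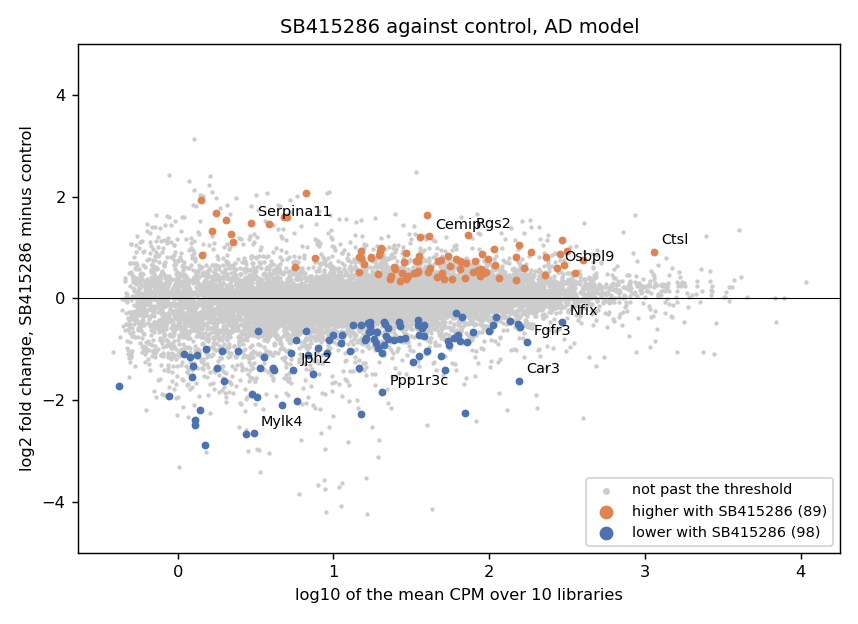
Log2 fold change (SB415286 minus control, upward) against log10 of the mean CPM over the 10 libraries (across), each point 1 of 15149 genes. The 89 higher genes (orange) and 98 lower genes (blue) past the threshold lie among many genes of similar size that did not pass (grey).

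Levels below are TMM-scaled counts per M reads (CPM), listed for controls 1, 2, 4, 5 and 6 and for SB415286 libraries 2, 3, 4, 6 and 7 in that order. Fold changes are SB415286 minus control on the log2 scale with the standard error of the fit. Adjusted p-values are those of edgeR's quasi-likelihood test.

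Cemip and Cmas were the higher genes with the smallest p. Cemip encodes a protein that binds hyaluronan and is needed for its breakdown. It stood at 21.9, 23.4, 26.6, 20.5 and 29.9 CPM in controls and at 44.1, 61.9, 56.2, 65.3 and 58.5 CPM with SB415286, a rise of 1.23 ± 0.13 (adjusted p = 0.0254). Every SB415286 library was above every control, library 7 lay among its own group, and control 6 was the highest control. Cmas encodes the enzyme that activates sialic acid for transfer onto glycans. Its levels were nearly constant within each group, 23.7, 22.4, 22.3, 22.8 and 22.8 CPM in controls against 33.0, 30.5, 33.4, 33.3 and 32.0 CPM, a rise of 0.51 ± 0.06 (adjusted p = 0.0298). Here neither control 6 nor SB415286 library 7 differed from the rest of its group. With 1 library left out, the Cemip change ran from 1.17 to 1.31 and that of Cmas from 0.50 to 0.53. Both lost the call, with adjusted p up to 0.124, without control 1, 2, 4 or 5 and without SB415286 library 3 or 4, and Cmas also without SB415286 library 2.

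Defb14, Serpina11, Slpi and Klk10, which encode secreted proteins, were also higher. Defb14, a beta-defensin with antimicrobial activity, stood at 39.6, 46.4, 35.4, 39.9 and 35.2 CPM in controls and 62.3, 65.0, 86.3, 71.0 and 65.1 CPM with SB415286, a rise of 0.83 ± 0.11 (adjusted p = 0.0382). Serpina11, a member of the serpin family, was scarce and went from 1.55 ± 0.305 CPM (SD, n = 5) to 4.34 ± 0.835 CPM, a rise of 1.48 ± 0.20. Both genes were apart in every library. Slpi, which encodes a secreted inhibitor of leukocyte elastase, varied more: 141, 240, 162, 217 and 157 CPM in controls against 339, 337, 512, 580 and 258 CPM, a rise of 1.14 ± 0.24 (adjusted p = 0.0493). Its SB415286 library 7 lay just above the highest control. Klk10, a kallikrein-related protease, was likewise lowest among treated libraries in number 7 and rose by 0.87 ± 0.18, from 203 ± 36.1 to 371 ± 89.3 CPM. Over the left-out fits the change of Defb14 ran from 0.75 to 0.90 and that of Slpi from 0.98 to 1.27. Slpi and Klk10 passed in 2 of the 10 fits, those without SB415286 library 7 and without control 6, and Defb14 and Serpina11 also passed without SB415286 library 6. Adjusted p in the other fits reached 0.124 to 0.135.

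Osbpl9 encodes a lipid transfer protein of the oxysterol-binding protein family. It stood at 212, 214, 213, 231 and 218 CPM in controls and 318, 333, 375, 319 and 294 CPM with SB415286, a rise of 0.59 ± 0.08 (adjusted p = 0.0382). The controls were almost level, and SB415286 library 7 was the lowest of its group but well above them. The gene lies on the minus strand of chromosome 4 at 109061145 to 109202272 (Entrez Gene 100273, GRCm38.p6). Its promoter is shown because Osbpl9 is also among the few genes whose response differed between the AD and ACD models (described with that comparison). RefSeq gives 2 starts for Osbpl9 in the table used. The window shown runs from 250 bases before to 50 after the upstream one (GRCm38.p6, chr4:109202223-109202522, minus strand), and the capitals mark the cAMP response element TGACGTCA, which begins 20 bases after the start and reads the same on both strands. The window of the other start, chr4:109117987-109118286, holds none of the 4 motifs searched.
Osbpl9: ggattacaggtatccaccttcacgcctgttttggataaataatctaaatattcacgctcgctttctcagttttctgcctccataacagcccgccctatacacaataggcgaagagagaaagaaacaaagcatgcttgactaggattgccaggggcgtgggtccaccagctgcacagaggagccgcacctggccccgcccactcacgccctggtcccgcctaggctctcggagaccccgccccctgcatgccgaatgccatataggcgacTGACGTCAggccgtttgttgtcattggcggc
The letters TGACGTCA, searched on both strands, were in 410 of 15251 promoters of tested genes (2.69%), in 6 of 97 promoters of higher genes (6.19%) and in 1 of 99 of lower genes (1.01%). These windows came from 11995 of the 15149 genes tested, 71 of the 89 higher genes and 77 of the 98 lower ones. Some genes had several windows. A match describes the window and is not a binding site. Left-out fits gave Osbpl9 changes of 0.54 to 0.63, with the call kept without SB415286 library 6, SB415286 library 7 or control 6 and adjusted p up to 0.124 otherwise.

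Ctsl, Ctsh and Pla2g7, which encode hydrolases, were among the 8 higher genes with the highest mean CPM. Ctsl, a lysosomal cysteine protease with a known part in hair follicle cycling in mice, had 714, 701, 698, 848 and 992 CPM in controls and 1480, 1540, 1940, 1490 and 1010 CPM with SB415286, a rise of 0.92 ± 0.18 (adjusted p = 0.0461). Control 6 was the highest control and SB415286 library 7 the lowest treated library, and these 2 nearly met. Ctsh, another lysosomal cysteine protease, stood at 250, 221, 223, 249 and 238 CPM and at 318, 350, 458, 403 and 333 CPM, a rise of 0.66 ± 0.11 without overlap. Pla2g7, the plasma enzyme that degrades platelet-activating factor, rose by 0.92 ± 0.16, from 218 ± 46.4 to 414 ± 63.6 CPM. On a per-length scale Ctsl was the most abundant of these, with means of 896 TPM in controls and 1581 TPM with SB415286, beside 279 and 413 TPM for Ctsh. Without both libraries that stood apart Ctsl differed by 1.12 and Ctsh by 0.69. Each of the 3 genes passed in 2 of the 10 left-out fits (without SB415286 library 7, without control 6), with Ctsl changes of 0.81 to 1.03 and adjusted p up to 0.124 in the others.

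Gsr, Esd, Hmox1, Hif1a and Tiparp were each called higher. Gsr, which regenerates reduced glutathione, stood at 59.5, 96.3, 64.4, 61.5 and 82.5 CPM in controls and 113, 144, 160, 138 and 157 CPM with SB415286, a rise of 0.96 ± 0.15 (adjusted p = 0.0382). Controls 2 and 6 were the highest controls and still below every treated library. Esd, an esterase that hydrolyses S-formylglutathione, went from 99.1, 100, 106, 111 and 122 CPM to 226, 184, 214, 163 and 155 CPM, a rise of 0.81 ± 0.12. Hmox1, which opens the haem ring, rose by 0.75 ± 0.15, from 298 ± 61.5 to 502 ± 68.0 CPM. Hif1a, the oxygen-regulated transcription factor subunit, rose by 0.50 ± 0.10, from 296 ± 27.3 to 418 ± 40.7 CPM. Tiparp, an ADP-ribosyltransferase that is induced by the aryl hydrocarbon receptor and restrains it, stood at 49.5, 59.8, 59.4, 61.2 and 74.4 CPM and at 85.1, 94.0, 105, 111 and 112 CPM, a rise of 0.74 ± 0.12. For each of these 5 genes the groups did not overlap, as for 175 of the 187 called genes and 4.65% of all genes tested. Gsr, Hmox1, Hif1a and Tiparp passed only without SB415286 library 7 or without control 6 among the left-out fits, Esd also without SB415286 library 6, and adjusted p elsewhere reached 0.135. The Gsr change ran from 0.90 to 1.08 over these fits and that of Hmox1 from 0.68 to 0.88.

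Rgs2, Adap2, Dynlt1c and Dynlt1b complete the 12 higher genes with the smallest p. Rgs2 encodes a protein that shortens G protein signalling, chiefly of the Gq class. Its levels were 42.0, 41.3, 38.6, 41.4 and 55.5 CPM in controls and 101, 74.5, 135, 78.8 and 127 CPM with SB415286, a rise of 1.24 ± 0.18 (adjusted p = 0.0382). Control 6 stood above the other controls, and SB415286 library 7 was the second highest library. Adap2, a GTPase-activating protein for Arf, rose by 0.85 ± 0.12, from 14.1 ± 1.60 to 25.3 ± 3.75 CPM. Dynlt1c and Dynlt1b, dynein light chains, rose by 0.77 ± 0.11 and 0.80 ± 0.12. These are near copies of each other, so how reads were divided between them is uncertain. Left-out fits gave Rgs2 changes of 1.12 to 1.34. Rgs2 and Dynlt1c kept the call without SB415286 library 6, SB415286 library 7 or control 6, Adap2 and Dynlt1b without library 7 or control 6 alone, and adjusted p elsewhere reached 0.124.

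**Figure D3:**
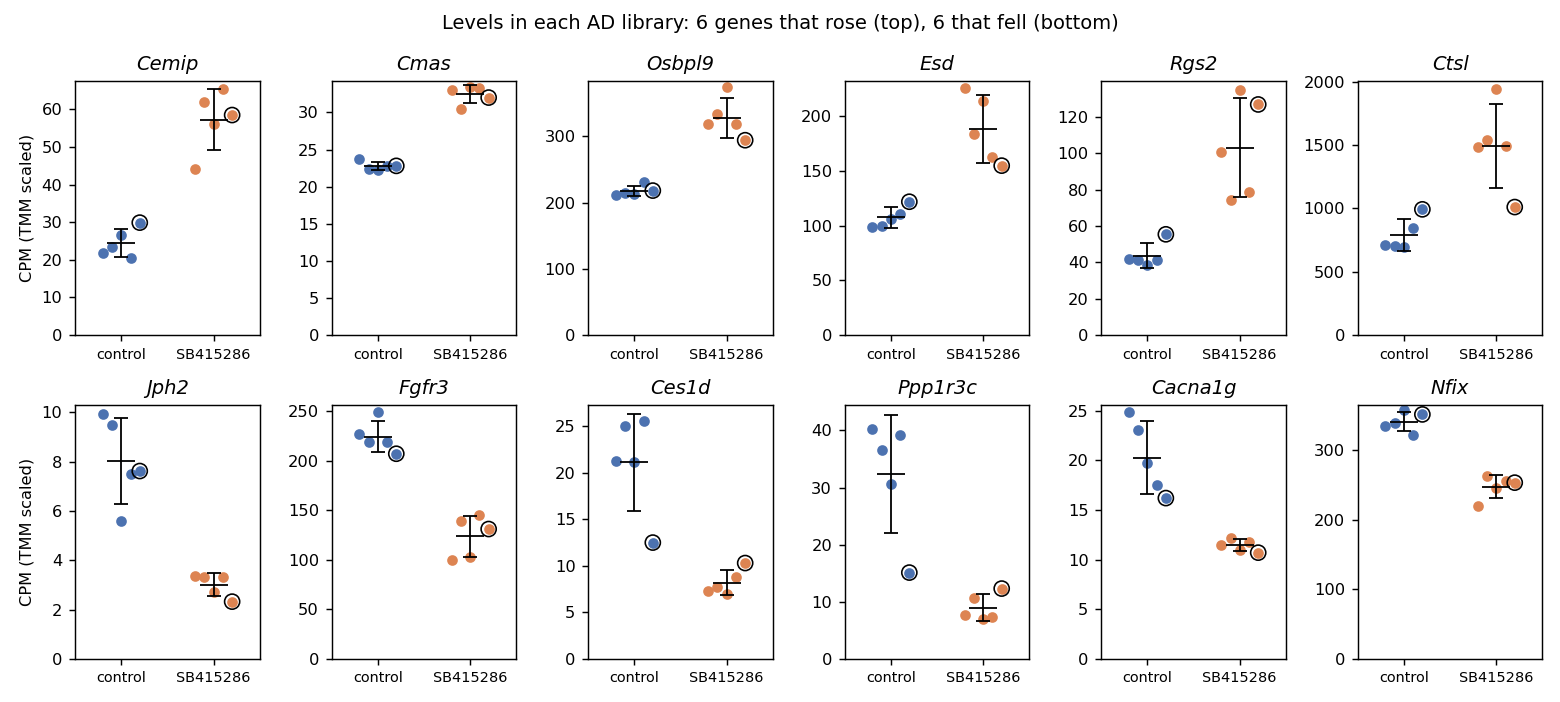
TMM-scaled CPM in each library for 6 genes that rose (top) and 6 that fell (bottom), controls in blue and SB415286 in orange, with bars for the group mean and SD (n = 5); circled points are control 6 and SB415286 7. The groups do not overlap for any of the 12 genes, as for 175 of the 187 called genes. The circled points come closest to each other for Ctsl (992 and 1010 CPM), Ces1d (12.5 and 10.3 CPM) and Ppp1r3c (15.1 and 12.3 CPM).

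Among the lower genes, Ppp1r3c belongs to the pathway GSK3 is named for. Its protein brings a phosphatase to glycogen, which keeps glycogen synthase active. It stood at 40.2, 36.6, 30.7, 39.2 and 15.1 CPM in controls and 7.62, 10.7, 6.96, 7.28 and 12.3 CPM with SB415286, a fall of -1.85 ± 0.27 (adjusted p = 0.0382). Control 6 was far below the other controls and SB415286 library 7 was the highest treated library, and without both the difference was -2.18. The gene lies on the minus strand of chromosome 19 at 36731731 to 36736604 (Entrez Gene 53412). Its promoter window is shown because Ppp1r3c is a glycogen gene and the window holds the letters bound by the TCF/LEF partners of beta-catenin (RefSeq, GRCm38.p6, chr19:36736555-36736854, minus strand). The capitals mark CTTTGAT, which begins 129 and 92 bases before the start, and the CLEAR E-box TCACGTGA, known from promoters of lysosomal genes, which begins 105 bases before it.
Ppp1r3c: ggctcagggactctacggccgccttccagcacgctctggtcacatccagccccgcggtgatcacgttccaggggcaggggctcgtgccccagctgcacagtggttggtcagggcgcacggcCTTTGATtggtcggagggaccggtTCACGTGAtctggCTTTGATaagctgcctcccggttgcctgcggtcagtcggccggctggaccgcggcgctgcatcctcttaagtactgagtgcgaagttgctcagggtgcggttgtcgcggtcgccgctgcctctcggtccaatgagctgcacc
CTTTGAT on either strand was in 400 of the 15251 promoters of tested genes (2.62%), in 4 of 97 promoters of higher genes (4.12%) and in 5 of 99 of lower genes (5.05%). TCACGTGA was in 248 (1.63%), in 1 (1.03%) and in 1 (1.01%). The antioxidant response element TGACNNNGC was in 2139 (14.0%), in 16 (16.5%) and in 19 (19.2%). These are counts of letters in the window and say nothing of binding. Ppp1r3c passed in the left-out fits without SB415286 library 7 or control 6, and its change over all 10 ran from -2.03 to -1.76.

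Ces1d and Car3, which encode enzymes, were also lower. Ces1d, a carboxylesterase that hydrolyses stored triglycerides, stood at 21.3, 25.0, 21.2, 25.6 and 12.5 CPM in controls and 7.24, 7.68, 7.01, 8.76 and 10.3 CPM with SB415286, a fall of -1.37 ± 0.19 (adjusted p = 0.0382). Car3, a carbonic anhydrase of muscle and fat, stood at 259, 359, 231, 188 and 134 CPM and at 46.5, 69.0, 64.7, 76.4 and 126 CPM, a fall of -1.62 ± 0.30 (adjusted p = 0.0461). In both genes control 6 was the lowest control and SB415286 library 7 the highest treated library, and the other libraries were far apart. Without these 2 libraries the differences were -1.61 and -2.02. Both genes lost the call when any other library was left out, with adjusted p up to 0.135, and the Car3 change then ran from -1.87 to -1.41 over the 10 fits. The summed adipocyte markers lay at 319 to 595 CPM in controls and 479 to 686 CPM with SB415286, and 0 of 8 passed. The sum and the members differed in direction, since 5 of the 8 were below 0, with a median of -0.25. Fabp4 was a large part of the sum, at 181 ± 51.5 CPM in controls and 327 ± 53.1 CPM with SB415286. Without SB415286 library 7 and control 6 the median was -0.57. In that fit 2 of 8 passed as lower and 1 as higher, beside 13.8% and 11.8% of all genes.

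The named lower genes included Fgfr3, Gpc1, Bcam and Pkd1, which encode proteins of the cell surface. Fgfr3, a fibroblast growth factor receptor of keratinocytes and chondrocytes, stood at 227, 219, 249, 219 and 207 CPM in controls and 99.7, 139, 103, 145 and 131 CPM with SB415286, a fall of -0.86 ± 0.12 (adjusted p = 0.0382). The groups were wide apart, and control 6 and SB415286 library 7 lay with their own groups. Gpc1, a heparan sulfate proteoglycan that binds fibroblast growth factors, stood at 108, 84.7, 109, 97.1 and 84.2 CPM and at 54.9, 64.5, 50.9, 64.6 and 69.2 CPM, a fall of -0.67 ± 0.11 (adjusted p = 0.0382). Bcam, a laminin receptor, fell by 0.52 ± 0.10 on the log2 scale, from 124 ± 8.91 to 86.4 ± 10.7 CPM. Pkd1, which encodes polycystin, had a small change of -0.36 ± 0.06 but a narrow spread, 125 ± 4.59 against 97.2 ± 3.19 CPM. The call of Fgfr3 held without SB415286 library 6, SB415286 library 7 or control 6 (changes from -0.93 to -0.79 over all left-out fits), the calls of Gpc1, Bcam and Pkd1 without library 7 or control 6, and adjusted p reached 0.133 otherwise.

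Cacna1g, Atp1b2, Lynx1, Slc9a3r2, Tril and Myorg were among the 12 lower genes with the smallest p. Cacna1g, a T-type calcium channel, stood at 24.9, 23.1, 19.7, 17.5 and 16.2 CPM in controls and in a narrow band of 11.5, 12.2, 11, 11.8 and 10.7 CPM with SB415286, a fall of -0.83 ± 0.12 (adjusted p = 0.0382). Atp1b2, a sodium pump subunit, differed by -0.80 ± 0.13, Lynx1, a modulator of nicotinic receptors, by -0.77 ± 0.12, and Slc9a3r2, a scaffold of membrane transporters, by -0.50 ± 0.08. Tril, an accessory protein of Toll-like receptor signalling, fell by 1.11 ± 0.18 on the log2 scale, from 9.44 ± 1.89 to 4.37 ± 0.817 CPM, and Myorg, a glycosidase, by 0.81 ± 0.12, from 12 ± 1.77 to 6.82 ± 0.450 CPM. The groups did not overlap for any of these 6 genes, as for 175 of the 187 called genes and 4.65% of all genes tested. The calls held without SB415286 library 7 or control 6, and for Lynx1 also without SB415286 library 6, and adjusted p reached 0.124 in the remaining fits.

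The lower genes included the transcription factors Nfix, Nfic, Maf and Sox9. Nfix, of the nuclear factor I family, stood at 335, 338, 358, 322 and 351 CPM in controls and 220, 262, 246, 256 and 253 CPM with SB415286, a fall of -0.46 ± 0.08 (adjusted p = 0.0382). Nfic, a member of the same family, stood at 221, 199, 191, 156 and 170 CPM and at 120, 139, 129, 109 and 137 CPM, a fall of -0.56 ± 0.11 (adjusted p = 0.0472). Both were low in all 5 treated libraries, library 7 included. Maf, a leucine zipper factor of macrophages, T cells and other types, fell by 0.45 ± 0.09 on the log2 scale, from 157 ± 13.9 to 115 ± 10.2 CPM. Sox9, needed for cartilage and for hair follicle stem cells, stood at 57.0, 74.1, 58.0, 49.1 and 31.7 CPM and at 20.9, 31.7, 25.3, 22.5 and 31.5 CPM, a fall of -1.03 ± 0.21 (adjusted p = 0.0488). Control 6 stood level with SB415286 libraries 3 and 7 for Sox9, and without both libraries that stood apart the difference was -1.25. These 4 genes kept their calls without SB415286 library 7 or control 6 only, with Sox9 changes of -1.17 to -0.89 and adjusted p up to 0.135 in the left-out fits. Tuba1a, an alpha-tubulin, behaved likewise with -0.50 ± 0.09, from 178 ± 15.0 to 126 ± 9.35 CPM.

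Jph2, Mylk4 and Pnkd were lower, and in whole ears less RNA per cell and fewer cells of a type cannot be told apart. Jph2, which ties the sarcoplasmic reticulum to the plasma membrane of muscle, stood at 9.93, 9.48, 5.59, 7.51 and 7.62 CPM in controls and 3.37, 3.31, 2.73, 3.32 and 2.32 CPM with SB415286, a fall of -1.41 ± 0.19 (adjusted p = 0.0382). Mylk4, a kinase of the myosin light chain kinase family, stood at 8.23, 4.86, 4.61, 5.38 and 3.40 CPM and at 1.71, 0.535, 0.309, 1.11 and 0.568 CPM, a fall of -2.65 ± 0.42. Pnkd, named for the movement disorder its human mutations cause, fell by 0.72 ± 0.12 on the log2 scale, from 44.4 ± 5.90 to 26.8 ± 3.18 CPM. The summed muscle markers ran in another order: 2310, 1800, 1840, 2030 and 4480 CPM in controls against 3460, 1260, 1230, 1830 and 152 CPM, and 0 of 12 passed although all 12 were below 0, with a median of -0.98. The muscle sum was highest in control 6 and lowest in SB415286 library 7. The cartilage markers, with Sox9 as the 1 of 10 tested that passed, summed to 710, 547, 608, 650 and 432 CPM and to 503, 492, 480, 391 and 418 CPM. Of these 10, 9 were below 0, with a median of -1.40. Without SB415286 library 7 and control 6, 9 of the 10 passed as lower, with a median of -1.64, beside 13.8% of all genes. In that fit 1 of 12 muscle markers passed as lower, with a median of -0.37. The part of muscle or cartilage content in these falls, and in those of Sox9 and Fgfr3, was not tested. Jph2 kept its call without SB415286 library 6, SB415286 library 7 or control 6 (changes from -1.52 to -1.33), Mylk4 and Pnkd without library 7 or control 6, and adjusted p reached 0.124 otherwise.

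For some immune and stromal cell types the summed markers of SB415286 library 7 or control 6 lay apart from the rest of their group. Langerhans and dendritic cell markers summed to 2680, 1330, 1340, 1310 and 789 CPM in controls and to 324, 591, 639, 399 and 1620 CPM with SB415286. They were lowest in 4 treated libraries, and SB415286 library 7 lay among the controls. Cd207, the langerin of Langerhans cells, was the 1 of these 10 markers past the threshold: 17.0, 9.17, 7.69, 10.3 and 2.82 CPM against 1.49, 2.19, 2.58, 1.79 and 3.45 CPM, a fall of -2.03 ± 0.42 (adjusted p = 0.0493) with control 6 below SB415286 library 7. Neutrophil markers summed to 428, 436, 496, 341 and 129 CPM in controls and to 146, 190, 207, 182 and 834 CPM, highest in SB415286 library 7 and lowest in control 6, and 0 of 6 tested passed. T cell markers summed to 84.0, 36.2, 57.2, 42.5 and 21.9 CPM in controls and to 17.2, 21.4, 17.9, 15.9 and 56.7 CPM, with Trac at 0 or not listed and 0 of 7 past the threshold. Control 6 was the lowest control and SB415286 library 7 the highest treated library, just below control 4. Fibroblast markers summed to 10600, 5910, 5740, 4510 and 3580 CPM and to 3050, 4690, 4050, 3170 and 6880 CPM, and 0 of 8 passed. Without SB415286 library 7 and control 6, 8 of 10 Langerhans and dendritic and 4 of 6 neutrophil markers passed as lower. So did 7 of 7 T cell and 6 of 8 fibroblast markers, beside 13.8% of all genes tested. Both left-out libraries were picked for lying near the opposite group. The counts therefore describe the other 8 libraries and are no separate support. Macrophage, mast cell, endothelial and lymphatic endothelial markers had medians of 0.18, 0.17, 0.12 and 0.19 with all libraries and 0 past the threshold. Without both libraries 0 of 8 macrophage markers passed, and 1 of 8 mast cell markers passed as higher and 2 as lower. In that fit 2 of 8 endothelial markers passed as higher and 1 of 5 lymphatic endothelial markers as lower. Of all genes tested in it, 11.8% passed as higher and 13.8% as lower. The part of cell type content in the gene results above was not tested. Cd207 kept its call without SB415286 library 7 or control 6 only, with changes of -2.26 to -1.70 over the left-out fits.

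Ear skin was recognisable in every library, since keratinocyte markers summed to 24600 to 37600 CPM in controls and 15900 to 45500 CPM with SB415286. Melanocyte markers were above 0 for 8 of 8 members, with a median of 0.72 and sums of 88.5 to 116 CPM against 100 to 268 CPM, but 0 passed. In the fit without SB415286 library 7 and control 6, 6 of them passed as higher, beside 11.8% of all genes. Liver and blood plasma genes were high in control 4 alone, at 1270 CPM against 1.66 to 206 CPM in the other 9 libraries, and 0 of 6 passed.

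**Figure D4:**
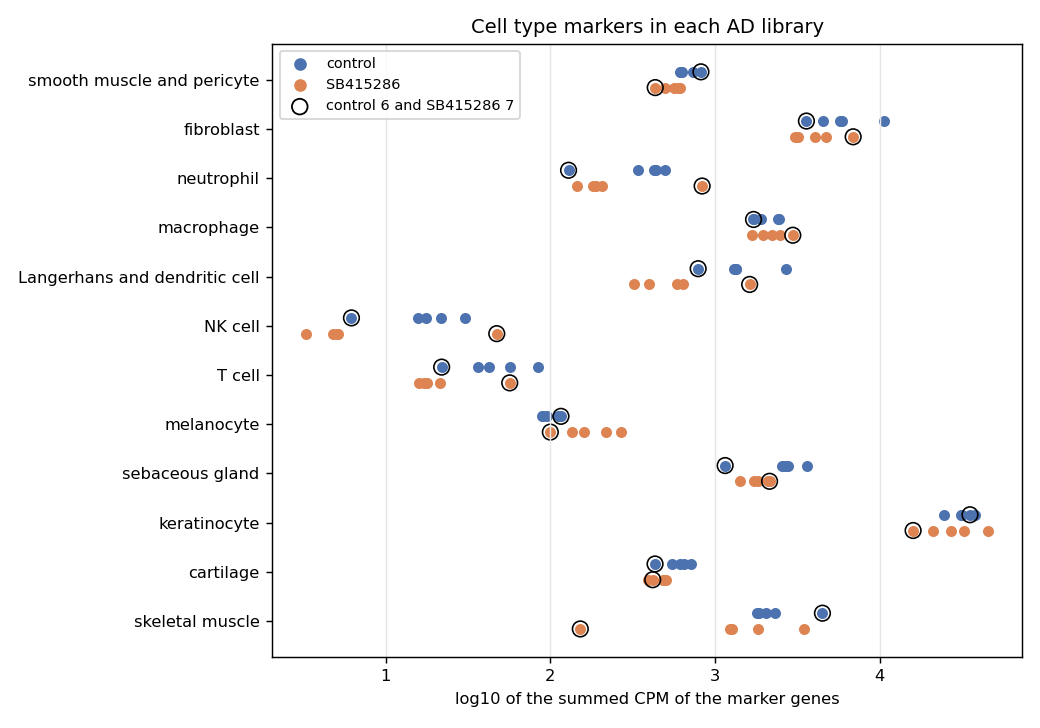
Log10 of the summed CPM of each cell type's marker genes (across) in every library, controls in blue and SB415286 in orange, with control 6 and SB415286 7 circled. For neutrophil, NK, T cell and Langerhans and dendritic markers, SB415286 7 lies above the other 4 SB415286 libraries and control 6 below the other 4 controls.

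A total of 25 pathway lists were examined, and none had more than 1 member past the threshold, beside 1.23% of all genes. FoxO-responsive genes, which are induced when insulin signalling is low, had the highest median of these lists, 0.46, with 16 of 18 members above 0 and 0 past the threshold. Their summed level was 1120, 1200, 1720, 2290 and 4430 CPM in controls and 4580, 3140, 4190, 3420 and 1810 CPM with SB415286. Control 6 and SB415286 library 7 again exchanged places. Gadd45a, a stress protein of growth arrest, stood at 0.62 ± 0.14 (adjusted p = 0.063) and Ccng2, a cyclin of quiescent cells, at 0.75 ± 0.20 (adjusted p = 0.0868), the 2 members with the smallest p. Without both libraries 13 of 18 passed as higher, beside 11.8% of all genes, and the median was 0.89.

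ATF4 stress genes, some of which serve amino acid supply, had 16 of 17 members above 0, a median of 0.26 and 0 past the threshold. Among them Trib3 stood at 0.69 ± 0.17 (adjusted p = 0.0659) and Sesn2 at 0.44 ± 0.12 (adjusted p = 0.0986). p53 target genes had 15 of 16 above 0, a median of 0.20 and 0 past the threshold, with Plk2, a polo-like kinase, at 0.49 ± 0.11 (adjusted p = 0.0616). Amino acid transporters had 10 of 15 above 0 and 0 past the threshold, with the cystine carrier Slc7a11 at 0.84 ± 0.20 (adjusted p = 0.0651). Endoplasmic reticulum chaperones went the other way in number, 12 of 15 below 0 with a median of -0.19 and 0 past the threshold. Within them Dnajb9 was at 0.41 ± 0.10 (adjusted p = 0.0646) and Pdia4 at -0.67 ± 0.27 (adjusted p = 0.201). Without SB415286 library 7 and control 6, 7 of 17 ATF4, 8 of 16 p53 and 6 of 15 transporter genes passed as higher. In that fit 1 transporter gene passed as lower, and 7 of 15 chaperones passed as lower and 2 as higher. Of all genes, 11.8% passed there as higher and 13.8% as lower. Cryab, a small heat shock protein of muscle and lens, was the 1 of 13 heat shock genes that passed (list median -0.04), a fall of -1.13 ± 0.19 (adjusted p = 0.0400), from 67.2 ± 18.8 to 30.7 ± 5.81 CPM. Its call too was lost without any library other than SB415286 library 7 or control 6, with adjusted p up to 0.124.

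Lysosome and autophagy genes, which are induced by TFEB, a factor that GSK3 phosphorylates, had 20 of 23 members above 0 and a median of 0.21. Ctsl, described above, was the 1 member past the threshold. Without SB415286 library 7 and control 6, 8 of the 23 genes passed as higher, beside 11.8% of all genes. Their summed level was 6600, 5970, 6760, 6960 and 7350 CPM in controls and 8220, 9180, 9550, 8640 and 7750 CPM with SB415286. The groups did not overlap in this sum, to which Ctsl gave 698 to 992 CPM in controls and 1010 to 1940 CPM with SB415286. Ribosome biogenesis genes activated by MYC had 15 of 18 members above 0, a median of 0.13 and 0 past the threshold, with the nucleolar GTPase Gnl3 at 0.32 ± 0.07 (adjusted p = 0.0627). Of the glutathione and thioredoxin enzymes Gsr was the 1 of 29 that passed, of the iron handling genes Hmox1 was the 1 of 15, and of the aryl hydrocarbon receptor genes Tiparp was the 1 of 8, all higher. Their medians were 0.01, 0.23 and -0.06. In the polyamine list, Amd2, a near copy of Amd1 whose reads are uncertain, was the 1 of 15 that passed (1.94 ± 0.37, adjusted p = 0.0461). It stood at 0.580 ± 0.103 CPM in controls and 2.23 ± 1.35 CPM with SB415286, highest in library 7 at 4.59 CPM. The call was lost without any library other than SB415286 library 7 or control 6.

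The remaining signalling lists had 0 members past the threshold in each case. The YAP and TEAD targets (19 members, median 0.11), EGF family (14, 0.14), BMP (17, 0.16), Notch (15 tested, 0.02) and retinoid genes (17, 0.22) had medians near or somewhat above that of all genes. Nt5e, an ecto-nucleotidase among the YAP targets, stood at 0.98 ± 0.21 (adjusted p = 0.054), and Lrat, which esterifies retinol, at 1.19 ± 0.29 (adjusted p = 0.0657). Hedgehog genes had a median of -0.07 over 11 tested members, with Gli1, the transcription factor and target of that pathway, at -0.84 ± 0.18 (adjusted p = 0.0514). TNF family ligands and receptors had 16 of 22 tested members below 0 and a median of -0.39, with Tnfrsf19 at -0.80 ± 0.18 (adjusted p = 0.0591). Without SB415286 library 7 and control 6, 13 of the 22 passed as lower, beside 13.8% of all genes. Hypoxia and glycolysis genes (22 members, median 0.01) and proteasome subunits (31, 0.05) had 0 past the threshold, and the proteasome list still had 0 without both libraries.

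Lists of structural matrix genes leaned lower. Of the small leucine-rich proteoglycans, which organise collagen fibrils, 7 of 9 tested members were below 0, the median was -0.59, and Omd was the 1 that passed. Omd stood at 83.9, 85.1, 69.2, 86.5 and 53.3 CPM in controls and at 37.5, 47.5, 43.7, 36.7 and 55.0 CPM with SB415286, a fall of -0.78 ± 0.16 (adjusted p = 0.0479) in which control 6 lay below SB415286 library 7. Its call was lost, with adjusted p up to 0.135, without any library other than these 2. Elastic fibre genes had a median of -0.14 over 18 members and 0 past the threshold. Mfap4 at -2.50 ± 0.60 (adjusted p = 0.0651) and Eln, which encodes elastin, at -2.35 ± 0.62 (adjusted p = 0.0838) had large but uneven differences: Eln stood at 665 ± 580 CPM in controls and 130 ± 75.9 CPM with SB415286. Matrix proteases and their inhibitors had a median of 0.27 over 23 members, and 0 passed, with the inhibitor Timp3 at -0.52 ± 0.12 (adjusted p = 0.0589). Cell junction genes had a median of 0.03 over 24 members and 0 past the threshold.

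**Figure D5:**
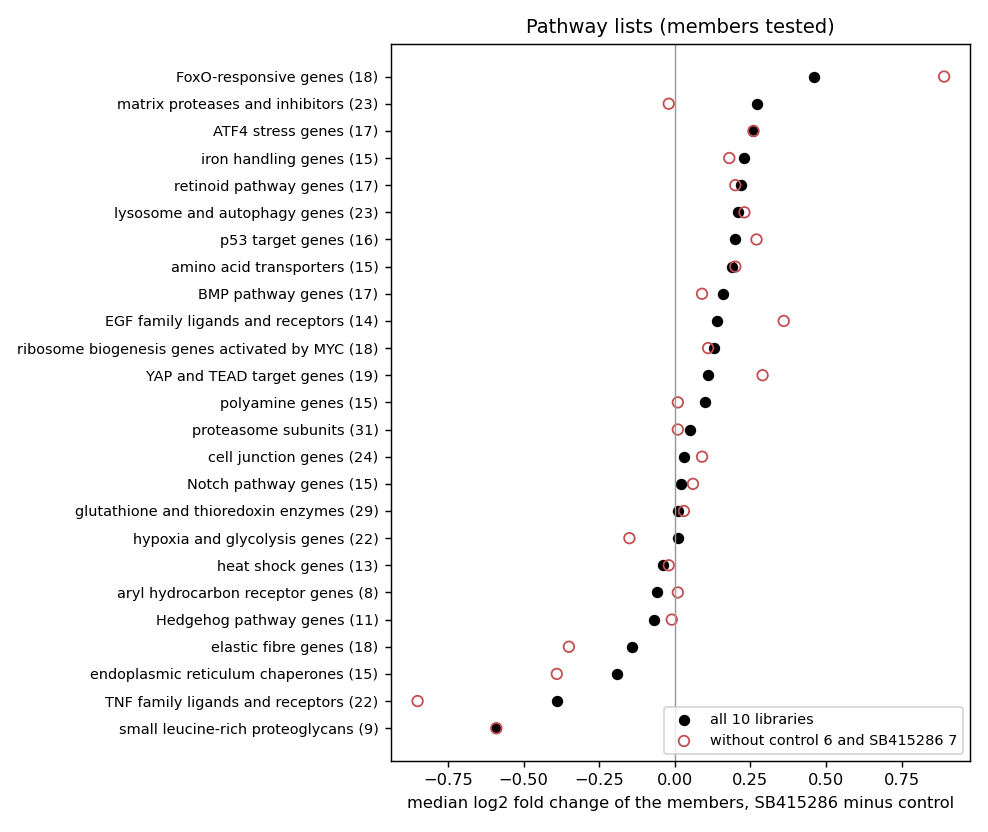
Median log2 fold change (SB415286 minus control) of the tested members of 25 pathway lists, with all 10 libraries (filled) and without control 6 and SB415286 7 (open); member numbers are in parentheses. FoxO-responsive genes have the highest median in both (0.46 and 0.89), and TNF family genes move furthest downward when both libraries are left out (-0.39 to -0.85).

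The response in the AD model was set beside that in the ACD model, which has its own controls. Of the 187 genes called in AD, 179 were tested in ACD, 142 differed there in the same direction and 0 passed, where 4 of 15150 genes passed in all (0.0264%). The share of all genes with the same direction in both models is not given here, so the 142 cannot be set against it. The median ACD change was 0.09 for the AD higher genes and -0.12 for the AD lower genes. A test of the difference between the models, in 1 edgeR quasi-likelihood fit of all 20 libraries (Benjamini-Hochberg adjusted), called 8 of 15700 genes (0.051%). Of the 187, 5 were among them: Osbpl9, Dynlt1c, Gpc1, Sox9 and 4931406C07Rik. Model and dose differ together between these groups, 0.7 mg/kg in AD and 2 mg/kg in ACD, and cannot be told apart.

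These 5 genes moved in AD and had ACD changes near 0 or of the other sign. Osbpl9 changed by 0.59 ± 0.08 in AD and 0.03 ± 0.06 in ACD, a difference of 0.56 ± 0.10 (adjusted p = 0.0386). Gpc1 changed by -0.67 ± 0.11 and stood at 0.18 ± 0.07 in ACD, a difference of -0.85 ± 0.13 (adjusted p = 0.0146). Sox9 changed by -1.03 ± 0.21 and stood at 0.25 ± 0.08 in ACD, a difference of -1.29 ± 0.23 (adjusted p = 0.0495). The unnamed gene 4931406C07Rik changed by 0.89 ± 0.15 and stood at -0.26 ± 0.13 in ACD, and Dynlt1c by 0.77 ± 0.11 and -0.06 ± 0.07. The other 3 genes called for the difference are lung genes whose change lay in ACD: Sftpb, a surfactant protein, was at 0.02 ± 0.31 in AD and 3.21 ± 0.25 in ACD. The count of 8 ran from 3 to 312 with 1 AD library left out, with 312 without SB415286 library 7, 234 without control 6, 19 without SB415286 library 2, 4 without SB415286 library 4 or 6 and 3 without SB415286 library 3 or control 5.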

How the data were processed

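Ear RNA of C57BL/6 mice was selected with oligo(dT) beads and sequenced on the MGISEQ-2000, per the labels' protocols. The authors deposited expected counts per gene, estimated and not normalised, with FPKM and TPM values that the authors scaled for gene length and library size. The submitters' processing notes list HISAT, HISAT2, Bowtie2 2.2.5, RSEM 1.2.8, GRCm38.p6 and a human assembly, with no role for each. TPM served only to compare levels between genes.

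Expected counts were rounded and fitted in R 4.3.3 with edgeR 4.0.16 (TMM, filterByExpr by group, robust quasi-likelihood test, 2-sided, Benjamini-Hochberg, threshold 0.05). Of 19234 genes, 15149 were tested. Named genes were the 12 smallest p and the 8 highest mean CPM per direction among called genes of at least 1 CPM with a symbol other than a predicted gene, with up to 4 called members of each list, otherwise its 2 of smallest p. Genes and lists were chosen with earlier results of these data known. A further 4 lists were made after values were seen. Alternatives were the scaling factors of DESeq2 and upper quartile scaling, 2 other filters, DESeq2 1.42.0, limma 3.58.1 (voom with quality weights, and on FPKM), the title number as a block, and each library left out. No label says that the numbers shared by 3 libraries per group mark pairs, and the main fit did not pair them. A total of 18 columns of averaged values were not used. Coordinates and promoters are RefSeq's, GRCm38.p6.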

Additional observations from a re-analysis of the deposited data

Results flagged for a closer look

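Of 196 groups of 5 libraries examined, 17 held a library far from the other 4 by Dixon's criterion, and chance gives about 1 in 20. Several involve SB415286 library 7, whose summed markers were above the other treated libraries: 47.3 CPM against 3.31 to 5.16 for NK cells, 834 CPM against 146 to 207 for neutrophils, 56.7 CPM against 15.9 to 21.4 for T cells, and 1620 CPM against 324 to 639 for Langerhans and dendritic cells. Its YAP and TEAD target sum was low, 1730 CPM against 2240 to 2340. Control 6 was high in the same YAP and TEAD sum at 2720 CPM against 1680 to 1950, in skeletal muscle markers at 4480 CPM against 1800 to 2310, and in Rgs2 at 55.5 CPM against 38.6 to 42.0, and low in Maf at 132 CPM against 159 to 167.

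Other libraries stood apart in single measures. Control 4 had 1270 CPM of liver and blood plasma genes against 27.8 to 81.0 in the other controls. Control 1 had 3510 CPM of elastic fibre genes against 2000 to 2290, and control 2 had 1360 CPM of ATF4 stress genes against 1130 to 1190. Control 5 was low in Dynlt1c at 39.0 CPM against 46.3 to 49.0 and in the summed nuclear factor I genes at 677 CPM against 739 to 759. SB415286 library 2 had the smallest total, 1.82e+07 counts against 2.04e+07 to 2.09e+07, and the lowest ATF4 sum of its group, 1330 CPM against 1400 to 1420. SB415286 library 3 had 588 CPM of Hedgehog genes against 503 to 515.

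The 8 genes that differed between the AD and ACD models in their response to SB415286, 5 of them called in AD and described above, were found by edgeR's quasi-likelihood test of the difference with Benjamini-Hochberg adjustment. The difference, AD minus ACD, was 0.56 for Osbpl9 (adjusted p = 0.0386), 0.82 for Dynlt1c (0.0274), 1.14 for 4931406C07Rik (0.0386), -0.85 for Gpc1 (0.0146) and -1.29 for Sox9 (0.0495). It was -3.20 for Sftpb (0.00439), -6.70 for Scgb1a1 (0.0146) and -7.23 for Sftpc (0.0274), which are lung genes.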

How the results depend on the processing

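No called gene that is named changed direction under any alternative run. The 187 calls (89 higher, 98 lower) became 182 (86, 96) with DESeq2's scaling factors and 203 (97, 106) with at least 1 CPM in 5 libraries. The totals were 170 (66 higher, 104 lower) with upper quartile scaling, 48 (23, 25) with no filter, 1235 (623, 612) with DESeq2, 3632 (1814, 1818) with limma voom and quality weights, 231 (66, 165) on log2(FPKM + 1) and 233 (67, 166) on log2(FPKM + 0.1). With the title number as a replicate block the counts were 0, 0 and 0, with 2255 genes at an unadjusted p under 0.05. Only numbers 2, 4 and 6 occur in both groups, so the SB415286 effect in the block fit rested on the libraries with those numbers. The deviations of same-numbered libraries correlated at -0.17, -0.20 and 0.25 for numbers 2, 4 and 6. With 1 library left out the total ran from 0 to 1423, the higher count from 0 to 755 and the lower from 0 to 668. An alternative chosen after seeing the data left out SB415286 library 7 and control 6 and gave 3894 (1796, 2098). The 8 genes that differed between models became 8 with DESeq2's scaling factors, 163 with DESeq2, 5 with no filter, 1 with the replicate block, 2117 without both libraries, and 3 to 312 with 1 library left out. Over 150 genes given singly, 412 of 1500 left-out values lost a call and 69 gained one, and the block lost the calls of all 53 that were called. The cause of these shifts was not tested. The effect of depth on these calls was not tested.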

Other observations

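Skint genes, which encode immunoglobulin-like proteins of thymus and epidermis, of which Skint1 is needed in mice for the epidermal gamma-delta T cells, were lower in the AD model. The family was taken whole, after values had been seen. Of 11 members, 4 passed in the edgeR fit, all lower, beside 0.647% of all genes tested, and the other 7 were below 0 as well. The median of all 11 was -0.92. Without SB415286 library 7 and control 6 it was -0.62, and 6 of 11 passed as lower, beside 13.8% of all genes. In that fit Skint4 stood at -0.05 and Skint7 at 0.03. Skint9, the most abundant, stood at 69.3, 62.9, 71.5, 91.7 and 66.4 CPM in controls and at 34.3, 42.7, 45.4, 43.7 and 24.8 CPM with SB415286 (-0.92 ± 0.17, edgeR adjusted p = 0.0442). Skint3 fell from 48.6 ± 7.75 to 22.2 ± 6.36 CPM (SD, n = 5; -1.13 ± 0.22, adjusted p = 0.0461), Skint6 from 25.7 ± 3.86 to 13.1 ± 3.60 CPM and Skint1 from 17.0 ± 4.19 to 8.38 ± 1.57 CPM. The family sum did not overlap, 271, 206, 249, 301 and 268 CPM in controls against 139, 150, 175, 176 and 88.7 CPM. Control 6 lay among the controls, and SB415286 library 7 was the lowest of all. The genes lie in 1 cluster on chromosome 4 and are similar in sequence, so the division of reads among them is uncertain. Their median in the ACD model was -0.02, and the difference between the models was not past the threshold for Skint1, 3, 6 or 9. The calls of these 4 held only without SB415286 library 7 or control 6 among the left-out fits, with adjusted p up to 0.124 in the others and Skint9 changes of -0.99 to -0.80.

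Enzymes that build glycans, listed after some of their values were seen, had 6 of 23 tested members past the threshold, all higher, beside 0.587% of all genes, and a median of 0.11. Besides Cmas these were Gmds, which makes the fucose donor (0.94 ± 0.16, adjusted p = 0.0382 by edgeR's quasi-likelihood test; 13.6 ± 2.29 to 26 ± 5.18 CPM), B3gnt2, which extends lactosamine chains (0.38 ± 0.07), C1galt1, which makes the core of O-glycans (0.51 ± 0.09), Gnpnat1, which acetylates glucosamine phosphate (0.55 ± 0.10), and Galnt3, which starts O-glycans (0.44 ± 0.09). The other 17 members included Nans, of the same sialic acid route as Cmas, at -0.27 ± 0.14 (adjusted p = 0.313). Calls of Gmds, B3gnt2 and C1galt1 were lost, with adjusted p up to 0.124, without any library other than SB415286 library 7 or control 6. Those of Gnpnat1 and Galnt3, like all 187 calls, were lost without control 1, 2, 4 or 5 and without SB415286 library 3 or 4.

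Within the cathepsins 2 of 13 passed, Ctsl and Ctsh, both higher, beside 0.587% of all genes. By edgeR's quasi-likelihood test Ctsb stood at 0.33 ± 0.15 (adjusted p = 0.247) and Ctsd at 0.27 ± 0.13 (adjusted p = 0.286). Of the 13, 9 were above 0 and 4 below, with a median of 0.20, and Ctsw stood at -1.18 ± 0.65. Without SB415286 library 7 and control 6, 4 passed as higher and 3 as lower, beside 11.8% and 13.8% of all genes. Within the nuclear factor I family 2 of 4 members, Nfix and Nfic, passed as lower, beside 0.647% of all genes, while Nfia stood at 0.06 ± 0.08 and Nfib at -0.13 ± 0.08. The 4 nuclear factor I genes summed to 677 to 759 CPM in controls and 529 to 593 CPM with SB415286. The cathepsins and the nuclear factor I genes were listed after values had been seen. The counts of called members are therefore no separate support.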
